A study of Homo sapiens with 36 samples.

Results

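The data described here are the CRISPR knockout of MEIS1 in human neural stem cells (hNSC): 6 MEIS1-KO libraries and 6 ctrl-KO libraries, 12 of the 36 RNA-seq libraries of the series. Of the 28516 genes in the count table, 17713 had at least 10 counts summed over these 12 libraries and were tested. MEIS1-KO cells were transduced with lentiCRISPRv2 virus, which carries Cas9 and a guide RNA, using a 1:1 mixture of viruses for the guides MEIS1-g2 and MEIS1-g3. ctrl-KO cells received the same system with a non-targeting guide RNA. All cells were a commercial hNSC line (Gibco), harvested 48 h after infection as transduced cultures and not as clones, so each library averages over edited and unedited cells. Lower expression in every cell and loss in a share of the cells cannot be told apart in such libraries. Cutting of genomic DNA and loss of MEIS1 were both present in MEIS1-KO and both lacking in ctrl-KO, and cannot be told apart in this comparison either. For comparison, MEIS2-KO received guides against the paralog MEIS2 in the same system, and in MEIS1-OE the gene was activated in its own locus by a catalytically dead Cas9 with activators, with ctrl-OE as the non-targeting control (6 libraries each). Nothing in the labels states whether the libraries of a group came from separate transductions, so the p-values measure the spread between these libraries.

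MEIS1 is a homeobox transcription factor of the TALE class. TALE proteins bind DNA together with partners, mainly the PBX proteins and HOX proteins, and MEIS binding sites contain the core TGACAG. In the developing nervous system MEIS1 and MEIS2 take part in neural progenitor maintenance, neuronal differentiation and regional identity. Variants at the MEIS1 locus are associated with restless legs syndrome.

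The sites of the cuts define what the knockout can affect. Each guide had 1 exact match in the GRCh37 genome, and both lie on the plus strand of chromosome 2 inside coding exons of MEIS1 (chr2:66660584-66801001). The guides are shown with the protospacer in lower case and the adjacent PAM, which Cas9 needs for binding, in capitals.
MEIS1-g2: ggtggccacacgtcacacagTGG
MEIS1-g3: aaaaagcgtcacaaaaagcgTGG
MEIS1-g2 (chr2:66691310-66691332) lies in exon 7 of the 13 exons of the canonical transcript. A cut 3 bases before its PAM falls in codon 239 of 390, after 61.2% of the coding sequence, and inside the coding sequence of all 6 annotated coding transcripts. MEIS1-g3 (chr2:66739346-66739368) lies in exon 8. Its cut falls in codon 275, after 70.4% of the coding sequence, and is in the coding sequence of 5 of the 6 coding transcripts. The cuts are 48036 bp apart. The 60 bases of genome around each cut follow, with the guide match in capitals. The MEIS1-g2 window reaches the end of exon 7 and the first bases of the intron, while the MEIS1-g3 window is exonic throughout.
Genome at MEIS1-g2: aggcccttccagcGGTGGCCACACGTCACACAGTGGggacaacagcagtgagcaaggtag
Genome at MEIS1-g3: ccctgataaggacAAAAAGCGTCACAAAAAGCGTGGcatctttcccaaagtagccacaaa

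The 12 libraries held between 17227052 and 21855364 counts on genes, and no pair within a group agreed within sampling noise. Expression is given as CPM, counts scaled to library sizes that were normalised by TMM, and calls are from edgeR's quasi-likelihood test. hNSC markers were present: mean expression in ctrl-KO was 1515 CPM for NES, 2439 CPM for VIM, 299.8 CPM for SOX2 and 104 CPM for SOX1. Of the neuronal markers, DCX and STMN2 lay at 0.892 and 0.0914 CPM in ctrl-KO, while MAP2 reached 755 CPM, TUBB3 177 CPM, ELAVL3 76.2 CPM and SYT1 52.1 CPM. Of the markers of other cell types, the mesenchymal collagen COL3A1 reached 573 CPM and the endothelial receptor gene KDR 133 CPM.

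MEIS1 mRNA was reduced in every knockout library. In ctrl-KO the lowest, median and highest values were 23.8, 25.5 and 27.8 CPM, and in MEIS1-KO 6.45, 8.89 and 11 CPM. The groups did not overlap, and all 6 knockout libraries were below all controls. MEIS1 fell by 1.53 on the log2 scale (standard error 0.07, adjusted p = 3.5e-17), which leaves 0.347 of the control level. The count rests on between 123 and 197 reads per MEIS1-KO library. MEIS2, the closest paralog, lay at -0.16 on the log2 scale (standard error 0.05, adjusted p = 0.105) and did not pass the test, with 5 of 6 knockout libraries below all controls (median 23.1 against 26.3 CPM).

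Few genes responded beyond the thresholds. Genes were called where the adjusted p was under 0.05 and the log2 fold change exceeded 0.58 in size (about 1.5-fold). This applied to 61 genes, 0.344% of those tested, of which 48 were raised (0.271%) and 13 lowered (0.0734%). The adjusted p alone was passed by 322 genes (1.82%), 214 raised (1.21%) and 108 lowered (0.61%), and 261 of these had smaller fold changes. The ranges of the 6 and 6 libraries did not overlap for 37 of the 61 called genes and for 1.65% of all tested genes. The counts depended on single libraries. Without MEIS1-KO replicate 3, 28 genes were called (20 raised, 8 lowered) and 166 passed the adjusted p. Without MEIS1-KO replicate 2, 92 genes were called (75 raised), and 473 passed. Leaving out ctrl-KO replicate 6 gave 209 genes at the adjusted p. A fit of the 12 libraries alone called 45 genes (31 raised, 14 lowered), with 212 at the adjusted p.

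**Figure D1:**
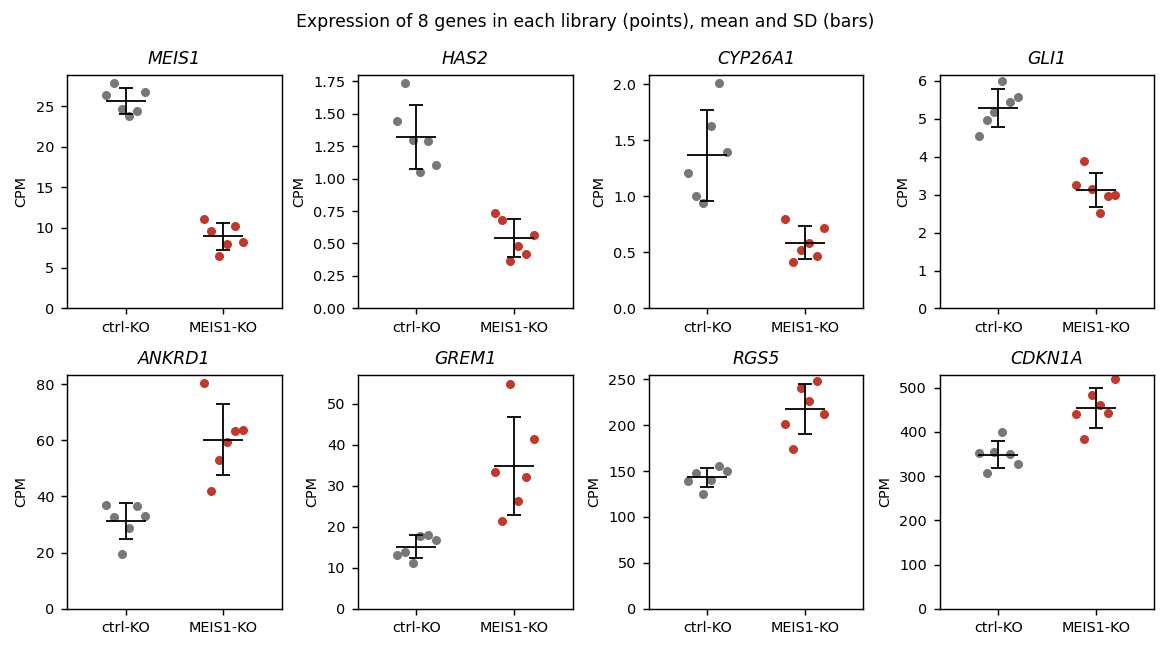
CPM (y axis, from 0) of 8 genes in the 6 ctrl-KO libraries (grey points) and the 6 MEIS1-KO libraries (red points), with mean and SD as black bars. MEIS1, HAS2, CYP26A1 and GLI1 are lower in all 6 knockout libraries than in all controls, and ANKRD1, GREM1 and RGS5 are higher in all 6, while for CDKN1A 5 of 6 knockout libraries are above all controls.

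The raised genes with the smallest p include several for secreted and surface proteins. PLAU, which encodes the urokinase plasminogen activator, had a median of 12.8 CPM in ctrl-KO and 22.8 CPM in MEIS1-KO and rose by 0.71 on the log2 scale (standard error 0.13, adjusted p = 0.00122), with 5 of 6 knockout libraries above all controls. The secreted BMP antagonist gene GREM1 had the largest fold change among the raised genes named: 11.2 to 18.1 CPM in ctrl-KO (median 15.3) against 21.5 to 54.9 CPM in MEIS1-KO (median 32.8), a rise of 1.20 on the log2 scale (standard error 0.22, adjusted p = 0.0016). Without MEIS1-KO replicate 3 its log2 fold change was 1.03 and still passed. DKK2, which encodes a modulator of WNT receptors, rose by 0.78 (adjusted p = 0.00352), and COL17A1, a transmembrane collagen, by 0.99 (adjusted p = 0.00352). CD44, the hyaluronan receptor, rose from a median of 9.55 to 16 CPM (log2 fold change 0.71, standard error 0.13, adjusted p = 9.91e-04). SPP1, encoding osteopontin, a ligand of CD44 and integrins, rose from 8.41 to 14.0 CPM (0.71, standard error 0.14, adjusted p = 0.00195).

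A further group acts in receptor signalling. RGS5 and RGS9 encode proteins that shorten G-protein signals. RGS5 was the most abundant of these raised genes in both groups, with 125, 144 and 156 CPM as lowest, median and highest in ctrl-KO and 174, 219.6 and 249 CPM in MEIS1-KO. All knockout libraries were above all controls, and RGS5 rose by 0.60 on the log2 scale (standard error 0.10, adjusted p = 4.48e-04). RGS9 had the smallest p of all raised called genes, from a median of 8.33 to 12.6 CPM (0.61, standard error 0.10, adjusted p = 3.21e-04). KCTD12, encoding an auxiliary subunit of GABA-B receptors, rose by 0.58 (standard error 0.09, adjusted p = 4.62e-04) and lies just above the fold threshold. RAPGEF3, which encodes the cAMP-responsive exchange factor EPAC1, rose by 0.59 (standard error 0.10, adjusted p = 6.96e-04). It overlaps SLC48A1 on the opposite strand, and SLC48A1 also had a positive log2 fold change (0.34, adjusted p = 0.0062). Since the strand setting used for counting is not given in the sources used here, reads of these overlapping genes may not have been told apart. RGS5 overlaps the mitotic gene NUF2 in the same way, whose log2 fold change was 0.05 (adjusted p = 0.829). HBEGF, a ligand of the EGF receptor, had a median of 11.9 CPM in ctrl-KO and 18.3 CPM in MEIS1-KO without overlap (0.61, standard error 0.11, adjusted p = 9.9e-04).

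Among intracellular proteins and regulators, PTRF, which encodes the caveolar coat protein cavin-1, ranged from 16.7 to 22.2 CPM in ctrl-KO and from 24.3 to 42.1 CPM in MEIS1-KO (log2 fold change 0.75, standard error 0.13, adjusted p = 7.9e-04). ANKRD1, a gene activated by YAP and TEAD in many cells, had medians of 32.8 and 61.3 CPM in ctrl-KO and MEIS1-KO without overlap (0.95, standard error 0.18, adjusted p = 0.00179). Transcription factor genes were in this group as well. ATF3, a stress-induced member of the ATF family, rose by 0.58 (standard error 0.10, adjusted p = 9.56e-04), and EPAS1, encoding the hypoxia-inducible factor HIF-2 alpha, rose by 0.80 (standard error 0.15, adjusted p = 0.00238). ANXA1, a membrane-binding annexin, rose by 0.67 (adjusted p = 9.91e-04), from 72.9 to 94.6 CPM in ctrl-KO to between 98.8 and 153 CPM. The remaining named genes are MAMDC2 (0.97), GLIPR1 (0.65) and CEACAM21 (1.09), which had no overlap between the groups either.

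Of the lowered genes, the targeted gene had the largest change among the 10 named. GLI1, a transcription factor and a direct target of Hedgehog signalling, came next by p. It fell from between 4.55 and 5.99 CPM in ctrl-KO (median 5.32) to between 2.51 and 3.88 CPM in MEIS1-KO (median 3.07), a change of -0.76 on the log2 scale (standard error 0.13, adjusted p = 5.89e-04). HAS2, the gene of a hyaluronan synthase, was low in expression, with 1.05, 1.29 and 1.73 CPM in ctrl-KO and 0.367, 0.524 and 0.735 CPM in MEIS1-KO. It fell by 1.28 on the log2 scale (standard error 0.25, adjusted p = 0.00293). CYP26A1, whose product degrades retinoic acid, had medians of 1.30 and 0.556 CPM (-1.24, standard error 0.26, adjusted p = 0.0047). Neither gene had overlapping groups. MYB, a proto-oncogene encoding a transcription factor of progenitor cells, fell by 0.69 (adjusted p = 0.0113), and TMEM150C by 0.82 (adjusted p = 0.00165). LRRTM3, a postsynaptic partner of neurexins, fell by 0.82 (standard error 0.18, adjusted p = 0.00853). The protocadherin gene PCDH8 fell by 0.93 (standard error 0.23, adjusted p = 0.0271), from a median of 25.8 to 13.6 CPM. Genes for neuronal adhesion did not share a direction, since NRXN3 and LRRC4C, described below, were raised. PCDH8, PDZRN4 (-0.60, adjusted p = 0.0251) and KLHDC8A (-0.89, adjusted p = 0.0147) depended on single libraries. KLHDC8A lost its call without ctrl-KO replicate 6 or MEIS1-KO replicate 3 (adjusted p up to 0.0658), and PCDH8 without ctrl-KO replicate 6 or MEIS1-KO replicate 3, 4 or 5 (up to 0.0845). PDZRN4 did so without ctrl-KO replicate 1, 2 or 5 or MEIS1-KO replicate 3 or 6 (up to 0.109).

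Gene lists were counted at an adjusted p under 0.05 and are read against the 1.21% of tested genes raised and the 0.61% lowered, and against the median log2 fold change of all tested genes of -0.00. With DESeq2, 443 of the 17713 tested genes passed the adjusted p, which is the background for its list counts. The share of all tested genes at an unadjusted p under 0.05 was not counted for MEIS1-KO against ctrl-KO. List counts at an unadjusted p therefore have no background here. In the list of 30 p53 target genes, which are switched on by DNA damage and other stress, 13 were raised, none was lowered, and the median log2 fold change was 0.22. All 30 fold changes were positive. The summed expression of the list was between 4221 and 4630.3 CPM in ctrl-KO and between 5029 and 5388 CPM in MEIS1-KO, so that the groups did not overlap. None of the 30 exceeded the fold threshold with a passing p. CDKN1A, the cell cycle inhibitor p21, had 308, 351 and 399 CPM as lowest, median and highest in ctrl-KO and 385, 451 and 518 CPM in MEIS1-KO (0.38, standard error 0.08, adjusted p = 0.00293), with 5 of 6 knockout libraries above all controls. The death receptor gene TNFRSF10B (0.16, standard error 0.03, adjusted p = 5.01e-04), the DNA repair gene XPC (0.17, standard error 0.03, adjusted p = 5.89e-04) and the oxidoreductase gene TP53I3 (0.30, standard error 0.05, adjusted p = 8.69e-04) changed little in size but had no overlap between groups. TNFRSF10B, CDKN1A, XPC and TP53I3 overlap other annotated genes on the opposite strand. MDM2, which encodes the ubiquitin ligase of p53, had a value of 0.24 (adjusted p = 0.068). The number raised was 8 without ctrl-KO replicate 5 or MEIS1-KO replicate 3, 7 without ctrl-KO replicate 6 or MEIS1-KO replicate 4, and 6 in the fit of the 12 libraries alone. It was 15 without ctrl-KO replicate 2 and at most 18 under the settings that left out no library. With DESeq2, 17 of the 30 passed.

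Lists of cytoskeletal, adhesion and growth-related genes were counted next. Of 16 actin and contractility genes of mesenchymal cells, 6 were raised, none was lowered, and the median log2 fold change was 0.26, with 16 positive values. ACTA2, the smooth muscle actin gene, went from a range of 97.7 to 106 CPM in ctrl-KO to 121 to 138 CPM in MEIS1-KO (0.36, standard error 0.05, adjusted p = 1.57e-04). It overlaps genes annotated on the opposite strand as well. The actin-binding genes CALD1 (0.40, adjusted p = 5.87e-04) and TPM1 (0.28, adjusted p = 8.09e-04) had no overlap between groups. Of 22 YAP and TEAD target genes 5 were raised (median 0.19), and without MEIS1-KO replicate 2 the number was 8. The receptor tyrosine kinase gene AXL rose by 0.43 (adjusted p = 5.09e-04), the growth arrest gene GADD45A by 0.35 (adjusted p = 9.56e-04) and the ectonucleotidase gene NT5E by 0.42 (adjusted p = 0.00102). The 2 best known members had positive values that did not pass, 0.40 for CTGF (adjusted p = 0.241) and 0.38 for CYR61 (adjusted p = 0.585). Of 17 AP-1 and immediate early genes, 11 had positive and 6 negative values, with a median of 0.15, and 3 were raised, ATF3 and the Fos-related genes FOSL1 (0.55, adjusted p = 0.00299) and FOSL2 (0.47, adjusted p = 0.013), and FOSL2 did not pass without MEIS1-KO replicate 6 (adjusted p = 0.0531). DESeq2 and the fit of the 18 knockout-system libraries each gave 5 raised genes in this list. The immediate early genes EGR2 (-0.82, adjusted p = 0.0679), FOS (-0.30, adjusted p = 0.70) and EGR1 (-0.24, adjusted p = 0.87) had negative values that did not pass. For annexins and S100 genes the count was 2 of 16 (median 0.27), ANXA1 and ANXA3 (0.65, adjusted p = 0.0257), with 5 without MEIS1-KO replicate 2. ANXA3 was lost without ctrl-KO replicate 2, 3, 5 or 6 or MEIS1-KO replicate 3 or 6 (adjusted p up to 0.119), and the count was then 1 in each case except that of ctrl-KO replicate 2. ANXA3 was also lost in the fit of the 12 libraries alone. CD44 and SPP1 were the 2 of 27 integrins, ligands and CD44 that were raised, and the number was 4 without ctrl-KO replicate 4 or MEIS1-KO replicate 1 and 7 without MEIS1-KO replicate 2. It was also 4 with RLE size factors, without the filter on low counts, with the filter set over all 36 libraries and in the fit of the 12 libraries alone, and 6 with the filterByExpr filter, with DESeq2 and in the fit of the 18 libraries. The median of the 27 genes was 0.08.

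**Figure D2:**
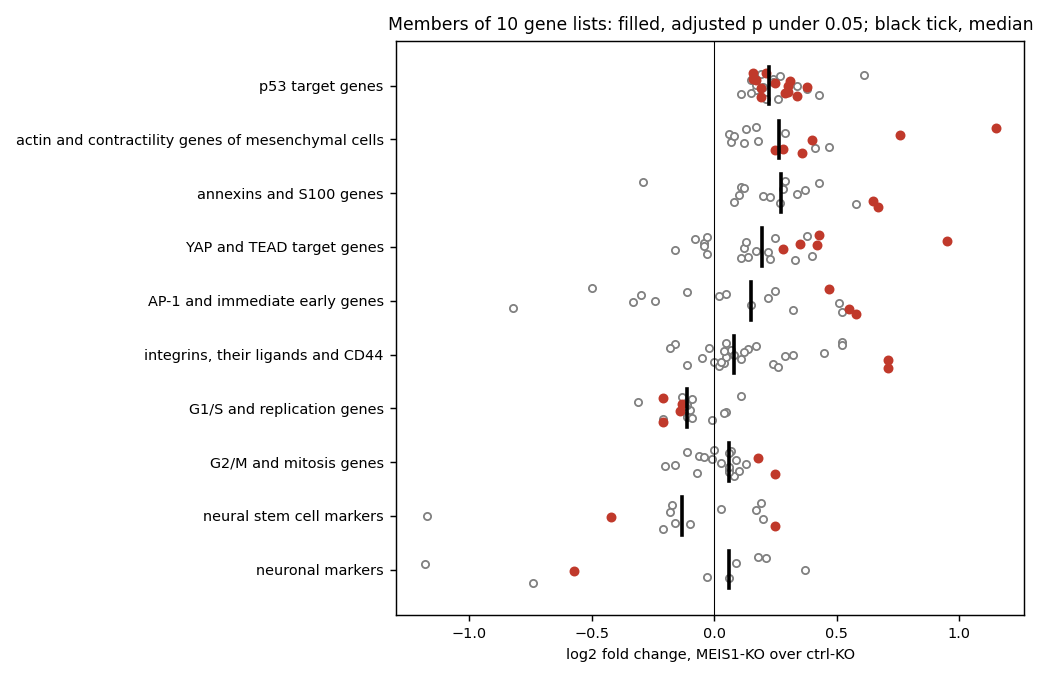
Log2 fold change of MEIS1-KO over ctrl-KO (x axis) for each tested member of 10 gene lists (y axis). Filled red points passed an adjusted p of 0.05, open points did not, and black ticks mark list medians; all 30 p53 target genes and all 16 actin genes lie to the right of 0, and 17 of 20 G1/S genes lie to the left.

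Cell cycle genes moved by small amounts. Of 20 G1/S and replication genes, 4 were lowered and none was raised, with 17 negative values and a median of -0.11. MCM4, a subunit of the replicative helicase, ranged from 462 to 480.5 CPM in ctrl-KO and from 413 to 436 CPM in MEIS1-KO (-0.14, standard error 0.03, adjusted p = 0.00442). The helicase subunit gene MCM6 (-0.21, adjusted p = 0.00857) and the cyclin gene CCNE1 (-0.21, adjusted p = 0.0118) were separated in the same way. In the fit of the 12 libraries alone CCNE1 and MCM3 did not pass, which left 2 genes. MCM3 (-0.13, adjusted p = 0.0219) lost its call without ctrl-KO replicate 5 or 6 or MEIS1-KO replicate 3 (adjusted p up to 0.0964), with RLE size factors (0.0588) and without the filter (0.0698). Among 20 G2/M and mitosis genes, UBE2C, which encodes a ubiquitin-conjugating enzyme of the anaphase-promoting complex, rose by 0.25 (adjusted p = 0.00158). CDK1, the mitotic kinase gene, was at 0.18 (adjusted p = 0.0417). Its call was lost with 9 of 12 libraries left out (adjusted p up to 0.12), namely ctrl-KO replicates 1, 3, 4, 5 and 6 and MEIS1-KO replicates 1, 3, 4 and 5. It was also lost with RLE size factors (0.0524), without the filter (0.0663), with the filter over 36 libraries (0.0569) and in the fit of the 12 libraries alone (0.119).

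The TALE partners of MEIS1 were counted as a list. Of 11 TALE homeobox genes, MEIS1 and PBX2 were lowered, and 9 of 11 values were negative. PBX2 fell by 0.10 (standard error 0.03, adjusted p = 0.0479) and lost its call with 9 of 12 libraries left out (adjusted p up to 0.16), all but ctrl-KO replicate 4 and MEIS1-KO replicates 2 and 6. It was also lost with RLE size factors (0.0544), without the filter (0.111), with the filter over 36 libraries (0.0717) and in the fits of the 12 (0.234) and 18 libraries (0.218). PBX3 was at -0.14 (adjusted p = 0.208). Of 12 HOX genes, 1 was abundant enough to be tested, with at most 1.06 CPM in any of the 12 libraries. FOXP2, a transcription factor gene of neural development, was the only 1 of 20 SOX and FOX genes to pass, from a median of 32.2 to 25.4 CPM (-0.36, adjusted p = 0.02), and it was lost without ctrl-KO replicate 2 or MEIS1-KO replicate 3 or 6 (adjusted p up to 0.0763). None of 8 other genes from loci of restless legs syndrome passed with edgeR or DESeq2. An unadjusted p under 0.05 was reached by 2 of them, without an all-gene share to set beside it. Their values lay between -0.30 for DACH1 (adjusted p = 0.321) and 0.49 for NTNG1 (adjusted p = 0.189) among the 8 genes.

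Synaptic adhesion genes went in both directions. Of 19 neurexins, neuroligins and partners, 2 were raised and 2 lowered, and the median was 0.01. NRXN3, a presynaptic neurexin gene, rose from a range of 17.0 to 18.4 CPM to 20.2 to 25.8 CPM (0.35, standard error 0.07, adjusted p = 0.00615), and the netrin-G ligand gene LRRC4C rose by 0.39 (standard error 0.07, adjusted p = 0.00165). Lowered were LRRTM3 and LRRC4, a relative of LRRC4C, at -0.24 (standard error 0.06, adjusted p = 0.031). LRRC4 was lost without ctrl-KO replicate 3, 4, 5 or 6 or MEIS1-KO replicate 1, 3 or 4 (adjusted p up to 0.0964) and in the fit of the 12 libraries alone (0.0569).

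Markers of cell identity gave few calls. At an unadjusted p under 0.05 the counts were 6 of 12 neural stem cell, 3 of 9 neuronal and 4 of 13 neural crest and mesenchymal markers. No share of all tested genes was counted at that threshold, so an excess cannot be read from these counts. Of the 12 neural stem cell markers, PAX6, a transcription factor gene of dorsal progenitors, fell from a range of 34.5 to 38.3 CPM to 22.7 to 32.3 CPM (-0.42, standard error 0.10, adjusted p = 0.0131), but not without MEIS1-KO replicate 3 (adjusted p = 0.0653). VIM, the intermediate filament gene, rose by 0.25 (adjusted p = 0.041) and was lost without ctrl-KO replicate 1, 2, 3 or 6 or MEIS1-KO replicate 3, 4, 5 or 6 (adjusted p up to 0.139). SOX2 was at -0.18 (adjusted p = 0.518) and NES at 0.19 (adjusted p = 0.311). Of 9 neuronal markers, SYP, the gene of synaptophysin, fell from a median of 2.10 to 1.49 CPM (-0.57, adjusted p = 0.00983), and was lost without MEIS1-KO replicate 5 (adjusted p = 0.0805) and in the fit of the 12 libraries alone (0.0822). DESeq2 called 2 neuronal markers. Of 13 neural crest and mesenchymal markers 1 passed with edgeR: COL1A1 rose by 0.82 (standard error 0.22, adjusted p = 0.0445), with 4 of 6 libraries above all controls, and was lost without ctrl-KO replicate 1, 2, 3, 5 or 6 or MEIS1-KO replicate 3, 4 or 6 (up to 0.173) and in the fit of the 12 libraries alone (0.064). DESeq2 called 2 of the 13. The summed level of these 13 ranged from 833 to 1073 CPM in ctrl-KO and from 945 to 1324 CPM in MEIS1-KO. Its part in the rise of the actin genes was not tested. The summed level of 10 endothelial and epithelial markers ranged from 172 to 186 CPM in ctrl-KO and from 172 to 228 CPM in MEIS1-KO. No member passed with edgeR among these, 13 astrocyte and oligodendrocyte markers and 4 pluripotency markers. At an unadjusted p under 0.05 the counts were 2, 2 and 1, and with DESeq2 1, 1 and 0.

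Other pathways gave few or no calls. None of 18 Notch pathway genes, 16 genes of the unfolded protein and integrated stress response, 16 sterol synthesis genes, 17 interferon-stimulated genes and 9 NF-kB and inflammatory genes passed with edgeR, at medians of 0.00, 0.03, -0.00, 0.04 and 0.25. An unadjusted p under 0.05 was reached by 3, 2, 0, 1 and 3 of them, again without an all-gene share. DESeq2 called 2 NF-kB and inflammatory genes and none in the other lists. Of 25 WNT targets and modulators, FRZB, which encodes a secreted WNT antagonist, rose by 0.36 (adjusted p = 0.0124), and was lost without ctrl-KO replicate 6 (adjusted p = 0.0547) and in the fit of the 12 libraries alone (0.0768). DESeq2 called 2 of the 25. HK2, the hexokinase gene, was the only 1 of 17 hypoxia and glycolysis genes to pass. It fell from 57.8 to 64.2 CPM in ctrl-KO to between 42.9 and 52.4 CPM (-0.39, standard error 0.06, adjusted p = 2.79e-04). SPRY2, a feedback inhibitor of receptor tyrosine kinases, was the only 1 of 16 ERK feedback genes that passed with edgeR, at -0.22 (standard error 0.05, adjusted p = 0.0066), while DESeq2 called 3.

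The question whether these changes are particular to MEIS1 was addressed by the direct test of MEIS1-KO against MEIS2-KO, which subtracts no control group, although all libraries enter its estimate of the spread. It found 3 genes at an adjusted p under 0.05 (0.0169% of those tested), and 977 (5.52%) at an unadjusted p under 0.05. They were MEIS1 (log2 difference -1.35, standard error 0.08), MEIS2 (0.94, standard error 0.05) and C15orf41, which lies beside MEIS2 on chromosome 15 (0.46, standard error 0.08, adjusted p = 0.00464). With DESeq2 the number was 7. None of the 48 raised genes differed at the adjusted p with edgeR or DESeq2, and 4 had an unadjusted p under 0.05. Their median difference was -0.09, and the median standard error 0.17. Of the 13 lowered genes MEIS1 alone differed with either tool, and 4 including MEIS1 had an unadjusted p under 0.05. The 48 and 13 genes were chosen by their values in the MEIS1-KO libraries, which also enter this test. Their differences from MEIS2-KO, including those of single genes below, are therefore a description. The 2 knockouts share the ctrl-KO libraries, so the values against ctrl-KO are only set side by side here. In MEIS2-KO, 2109 genes (11.9%) had an adjusted p under 0.05 against ctrl-KO. GREM1 was at 1.20 in MEIS1-KO and 1.59 in MEIS2-KO, RGS5 at 0.60 and 0.61 and GLI1 at -0.76 and -0.63. CYP26A1 and TMEM150C passed in MEIS1-KO (-1.24 and -0.82), whereas in MEIS2-KO they were at -0.38 (adjusted p = 0.308) and -0.32 (adjusted p = 0.144). Their differences between the knockouts, -0.86 (standard error 0.27) and -0.49 (standard error 0.16), did not pass, each at an adjusted p of 0.896.

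**Figure D3:**
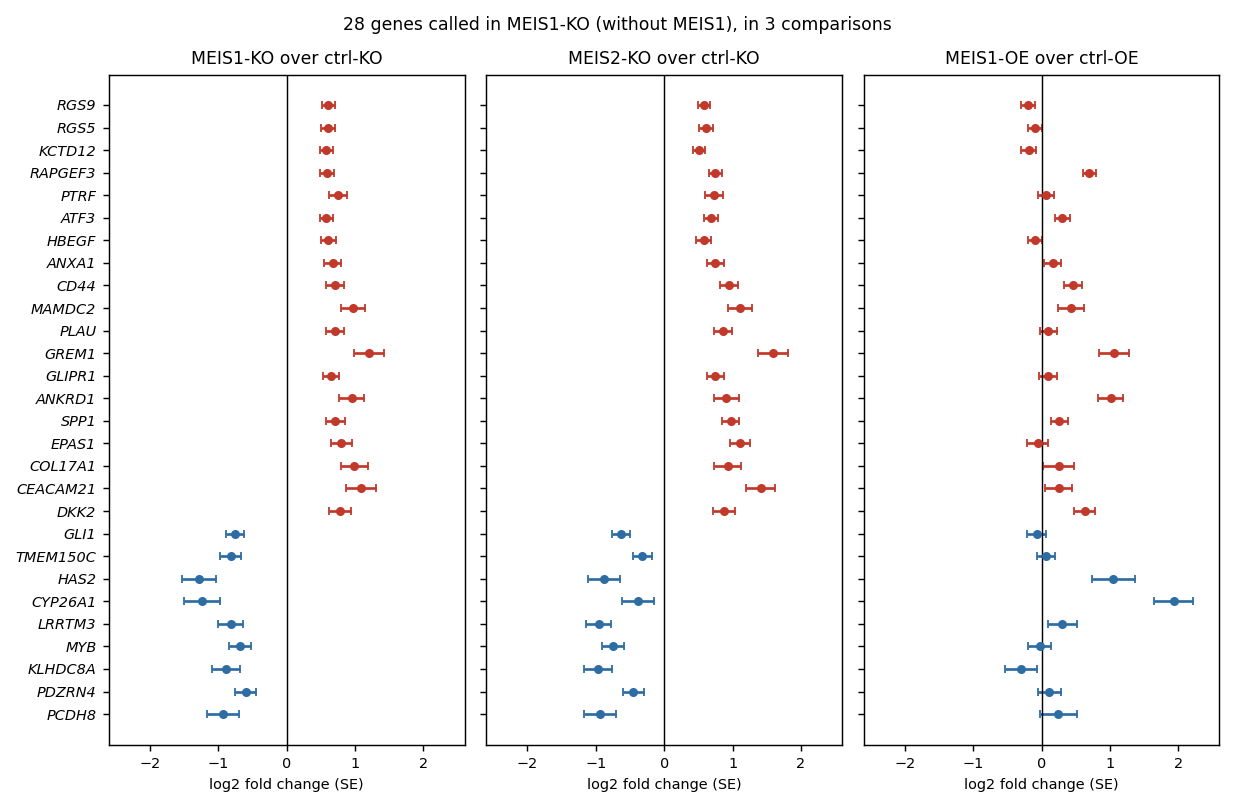
Log2 fold change with standard error (x axes) of 28 genes called in MEIS1-KO (y axis, MEIS1 left out) in MEIS1-KO over ctrl-KO, MEIS2-KO over ctrl-KO and MEIS1-OE over ctrl-OE. Red points are genes raised and blue points genes lowered in MEIS1-KO; the first 2 panels share the ctrl-KO libraries, and in the third HAS2 and CYP26A1 lie to the right of 0 at 1.05 and 1.93.

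Activation of MEIS1 used libraries that share no sample with the knockout comparison, so the called genes could be looked up there. In MEIS1-OE, 1795 genes (10.1%) passed an adjusted p of 0.05: 5.98% of the tested genes were raised and 4.16% lowered. Of the 48 genes raised in MEIS1-KO, 10 were raised and none was lowered. GREM1 (1.06, adjusted p = 6.27e-04), ANKRD1 (1.01, adjusted p = 8.96e-05), RAPGEF3 (0.70, adjusted p = 6.37e-07), DKK2 (0.63, adjusted p = 0.00465) and CD44 (0.46, adjusted p = 0.0151) thus had higher levels both with less and with more MEIS1 mRNA. RGS5 (-0.10, adjusted p = 0.64) and RGS9 (-0.20, adjusted p = 0.223) did not pass in MEIS1-OE. Of the 13 lowered genes, 3 were raised and none was lowered: MEIS1 itself (4.12, adjusted p = 5.19e-33), HAS2 and CYP26A1. HAS2 had medians of 0.274 CPM in ctrl-OE and 0.535 CPM in MEIS1-OE (1.05, standard error 0.32, adjusted p = 0.0304), and CYP26A1 medians of 0.25 and 0.985 CPM (1.93, standard error 0.29, adjusted p = 6.35e-06). HAS2 was also lowered in MEIS2-KO against ctrl-KO (-0.88, standard error 0.24, adjusted p = 0.0116). It did not differ between the knockouts (-0.40, standard error 0.28, adjusted p = 0.907).

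Among all 322 genes at an adjusted p under 0.05 in MEIS1-KO, 88 also passed in MEIS1-OE, 58 in the same direction and 30 in the opposite direction. Opposite changes included 19 genes lowered in MEIS1-KO and raised in MEIS1-OE, with MEIS1 itself, HAS2 and CYP26A1 among the 19. After the values were seen, BAALC, ST8SIA4 and KIT were picked from these as examples. BAALC, a gene expressed in neuroectodermal and progenitor cells, was at -0.32 in MEIS1-KO (adjusted p = 5.88e-04) and at 0.92 in MEIS1-OE (adjusted p = 4.1e-16). ST8SIA4, which encodes a polysialyltransferase of the neural cell adhesion molecule, was at -0.30 (adjusted p = 0.00238) and 0.63 (adjusted p = 1.81e-10), and KIT, a receptor tyrosine kinase gene, at -0.33 (adjusted p = 0.0226) and 0.71 (adjusted p = 3.09e-08). SPRY2 was at -0.22 and 0.46 (adjusted p = 1.19e-09), and LRRC4 at -0.24 and 0.23 (adjusted p = 0.00947). In MEIS2-KO against ctrl-KO, SPRY2 was at -0.21 as well (adjusted p = 0.00222). The values of the other examples in MEIS2-KO are not given here. Another 11 genes were raised in MEIS1-KO and lowered in MEIS1-OE, among them FRZB at 0.36 and -0.31 (adjusted p = 0.00686) and CDK1 at 0.18 and -0.16 (adjusted p = 0.0257). The MEIS1-KO calls of LRRC4, FRZB and CDK1 were lost under the settings given above.

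The genomic surroundings of the cuts were looked at for changes in neighbouring genes. Of the 20 tested genes nearest to MEIS1 (10 on each side), 2 were lowered at an adjusted p under 0.05 and none was raised. The share lowered was 10.0%, against 0.61% of all tested genes. The median log2 fold change was -0.11, with 15 of 20 values negative against 50.2% of all tested genes. The 2 lowered genes were SLC1A4, an amino acid transporter gene 1409585 bp before MEIS1 (-0.23, standard error 0.06, adjusted p = 0.022), and CEP68, a centrosomal gene 1346446 bp before it (-0.19, standard error 0.04, adjusted p = 0.00962). In MEIS2-KO, where chromosome 2 is not targeted at MEIS1, the median of the 20 genes was -0.13, with 14 negative values. There 2 of the 20 were lowered at an adjusted p under 0.05, VPS54 and SLC1A4. Of all tested genes, 11.9% passed in MEIS2-KO in either direction. None of the 20 differed between the knockouts at an adjusted p under 0.05. The 289 tested genes of chromosome 2 before MEIS1 had a median of -0.026, and the 722 after it of -0.015.

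Imperfect matches of the guides were taken from the predicted sites listed by the study. For MEIS1-g2 and MEIS1-g3 they lay in introns or exons of 93 genes, of which 70 were tested. Of these STK10 alone had an adjusted p under 0.05, 1.43% against 1.82% of all tested genes. The site in STK10 is shown for this reason, and that in SMOC1 was chosen after its values were seen. An unadjusted p under 0.05 was reached by 13 of the 70. No share of all tested genes was counted at that threshold, so an excess cannot be read from this count. RAPGEF3 is listed only for a MEIS2 guide, which MEIS1-KO cells did not receive. The sites are shown with the protospacer bases that differ from the guide in capitals, read 5′ to 3′ along the guide. Substitutions are counted from 1 at the 5′ end of the guide, with the guide base first.
STK10 site of MEIS1-g2 (chr5:171480945-171480967): CTtggccaAaAgtcacacagtgg
SMOC1 site of MEIS1-g3 (chr14:70435728-70435750): aCaaagcAtTacaaaaagAgagg
The STK10 site differs from MEIS1-g2 by G1C, G2T, C9A and C11A, and the SMOC1 site from MEIS1-g3 by A2C, G8A, C10T and C19A. STK10, a serine/threonine kinase gene, rose from a median of 42.4 to 49.7 CPM (0.33, standard error 0.09, adjusted p = 0.0292), and was lost without ctrl-KO replicate 1, 2, 3, 5 or 6 or MEIS1-KO replicate 3 or 6 (adjusted p up to 0.129) and in the fit of the 12 libraries alone (0.0914). SMOC1, which encodes a secreted calcium-binding matrix protein, had 118, 145 and 179.6 CPM as lowest, median and highest in ctrl-KO and 57.9, 86.3 and 110.4 CPM in MEIS1-KO. All 6 knockout libraries were below all controls, but the log2 fold change of -0.73 (standard error 0.30) did not pass (adjusted p = 0.252). It passed in the fit of the 12 libraries alone (adjusted p = 0.0126) and in that of the 18 knockout-system libraries (adjusted p = 0.00403). The study counted SMOC1 among the genes at predicted sites that differed from ctrl-KO, unlike the main fit here. It described SMOC1 as affected by both MEIS1 and MEIS2. In MEIS2-KO, which carries other guides, STK10 was at 0.46 and SMOC1 at -0.92, and neither differed between the knockouts (adjusted p = 0.903 and 0.964).

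Promoter sequences were searched for the letters TGACAG (MEIS), TGANTCA (AP-1) and GGAATG (TEAD) on both strands in the 250 bases before the RefSeq start site (GRCh38.p14). Only 70.0% of tested genes, 66.7% of the raised and 69.2% of the lowered called genes had a sequence, under the 80% required, so the comparison of shares between these sets is void. Of the 12407 tested genes with a sequence, 10.7% held TGACAG, 4.17% TGANTCA and 9.58% GGAATG. The promoters of ANKRD1, a raised gene, and PDZRN4, a lowered gene, are shown as examples of windows that hold these letters. The letters are in capitals on either strand. Most windows of the named called genes held none of them. That of ANKRD1 (chr10:90921088-90921337, minus strand) has GGAATG at positions -220 and -128 and TGANTCA at -195 from the start.
ANKRD1: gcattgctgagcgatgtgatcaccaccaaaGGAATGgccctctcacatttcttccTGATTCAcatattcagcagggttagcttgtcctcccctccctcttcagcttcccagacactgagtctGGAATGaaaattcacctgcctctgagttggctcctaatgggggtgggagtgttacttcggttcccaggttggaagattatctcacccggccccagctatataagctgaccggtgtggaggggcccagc
That of PDZRN4 (chr12:41437489-41437738, plus strand) has TGACAG on the opposite strand at -176 and -132.
PDZRN4: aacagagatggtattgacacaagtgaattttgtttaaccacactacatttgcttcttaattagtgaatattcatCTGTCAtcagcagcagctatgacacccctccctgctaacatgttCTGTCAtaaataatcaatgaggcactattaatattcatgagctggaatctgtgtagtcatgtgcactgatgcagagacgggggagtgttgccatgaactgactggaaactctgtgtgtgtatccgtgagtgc
The same window of MEIS1, GREM1 and CYP26A1 held none of the 3 motifs.

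The size of the response differed between knockout libraries. The mean log2 difference from ctrl-KO over the 48 raised genes was 0.74, 0.47, 1.07, 0.72, 0.69 and 1.02 in MEIS1-KO replicates 1 to 6, and between -0.12 and 0.13 in the ctrl-KO libraries. In the same order, MEIS1 was at 11, 9.58, 6.45, 8.0, 10.2 and 8.2 CPM. In the 6 MEIS2-KO libraries, where MEIS1 was between 21.0 and 24.0 CPM, the mean over these genes was between 0.72 and 1.0. Since these genes were chosen by their rise over the same libraries, the separation from ctrl-KO is a description.

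**Figure D4:**
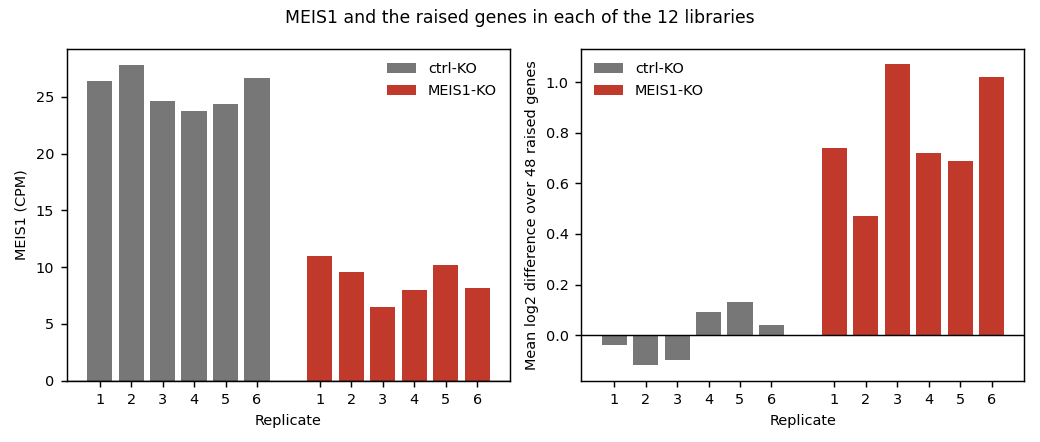
MEIS1 CPM (left) and the mean log2 difference from the ctrl-KO mean over the 48 raised genes (right) in each of the 6 ctrl-KO (grey) and 6 MEIS1-KO (red) libraries, by replicate number (x axis). MEIS1 is between 6.45 and 11 CPM in the knockout libraries, and the mean over the raised genes lies between 0.47 and 1.07.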

How the data were processed

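RNA-seq counts of poly-A RNA (TruSeq stranded, 100 bases from both ends) were analysed as the authors deposited them: raw counts per gene symbol by HTSeq after alignment to hg19 with STAR, without normalization. The submitters' processing notes name STAR 2.7.0a and Trimmomatic 0.39, while the methods of the study give another STAR version. The annotation and strand setting of the counting are not given in the sources used here. Many named genes overlap genes annotated on the opposite strand, and the overlap is not mentioned for each. Examples are LRRTM3 with CTNNA3, GLIPR1 with KRR1, LRRC4 with SND1 and PAX6 with ELP4. Depth was 17227052 to 21855364 counts per library in the 12 libraries compared. The biological coefficient of variation was 0.0922 in the fit of all 36 libraries.

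Genes with at least 10 counts over these libraries were tested with edgeR 4.0.16 (R 4.3.3, limma 3.58.1) by the quasi-likelihood F test in a fit of 6 groups and 36 libraries, with TMM library sizes and a prior count of 0.125. The log2 fold change over the root of its F value gave each standard error. P-values are two-sided and adjusted by Benjamini-Hochberg over all tested genes. On simulated counts of 17451 genes for this comparison, edgeR called 94 of 100 genes changed by 0.75 and 100 of 100 changed by 1.5 on the log2 scale, with 2 false calls. At the adjusted p alone, the threshold used for lists, 8 unchanged genes passed. The changed genes had a mean of at least 1 CPM in ctrl-KO, and the counts were drawn with edgeR's own estimates of the spread. Recovery of genes below 1 CPM was not tested. Of the 61 called genes, 49 had at least 1 CPM in a group.

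Named are MEIS1, MEIS2, the 20 raised and 10 lowered called genes with the smallest p and a mean of at least 0.5 CPM in either group, and up to 4 passing members of each list, except for results that are not reported here. Other genes were named after their values were seen, as list members that did not pass, neighbours, genes at guide matches, or genes overlapping others. Members and lists were chosen with earlier results of these data known. Gene positions are from a GENCODE annotation lifted to GRCh37 (87.3% of tested genes found), guides and predicted sites from the supplementary tables of the study, promoters from RefSeq. Alternatives were other size factors, filters, samples in the fit, a raised prior count (2), a block on replicate number and DESeq2 1.42.0. Each of the 12 libraries compared was also left out in turn.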

Additional observations from a re-analysis of the deposited data

Results flagged for a closer look

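Of 132 groups of 6 libraries checked for a library far from the rest, 6 had a gap to the nearest library that was larger, relative to the range of the group, than Dixon's 95% critical value, and chance gives about 1 in 20 groups. ANXA1 in MEIS1-KO replicate 2 was at 98.8 CPM, below the next value of 138 CPM, and NT5E in the same library at 44 CPM, below 55.5 CPM. MCM3 was lowest in MEIS1-KO replicate 3, at 341 CPM against 364 CPM in the next library. In ctrl-KO, MAMDC2 was lowest in replicate 3 (4.72 CPM, next 5.88 CPM) and MCM6 highest in replicate 2 (367 CPM, next 331 CPM). The total of MEIS1-KO replicate 1, 17227052 counts, stood below the other 5 of its group.

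The knockouts differed from each other, by the direct test, for 3 genes. MEIS1 was lower in MEIS1-KO than in MEIS2-KO by a log2 difference of -1.35 (adjusted p = 2.14e-15) and MEIS2 higher by 0.94 (adjusted p = 2.68e-15), each being the targeted gene of 1 of the knockouts. C15orf41, beside MEIS2, was higher in MEIS1-KO by 0.46 (adjusted p = 0.00464), with medians of 9.56 CPM in MEIS1-KO, 6.88 CPM in MEIS2-KO and 9.18 CPM in ctrl-KO.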

How the results depend on the processing

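MEIS1 itself stayed past the threshold under all alternatives, with log2 fold changes between -1.59 and -1.45 with 1 library left out. With 1 of the 12 MEIS1-KO and ctrl-KO libraries left out, the genes called ranged from 28 to 92, those raised from 20 to 75 and those lowered from 8 to 17. Those at an adjusted p under 0.05 ranged from 166 to 473. Genes differing from MEIS2-KO stayed at 3, but no MEIS2-KO library was left out. Of the 61 genes of the main fit, 13 to 14 passed in MEIS1-OE. No MEIS1-OE or ctrl-OE library was left out, so the steadiness of that count was not tested. The lowest counts of called genes came without MEIS1-KO replicate 3, where 27 of the 28 were among the 61. The fit of the 12 libraries alone gave 31 raised genes and 212 at the adjusted p, the 18 knockout-system libraries gave 20 lowered genes, and DESeq2 gave 7 genes differing from MEIS2-KO. The other filters, size factors and prior count moved each of these counts by less than 1.5 times. The comparison with MEIS2-KO was not run in the fit of 12 libraries, nor that of MEIS1-OE in the fits of 12 and 18.

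The replicate number as a block gave 524 genes at the adjusted p and 79 called genes, 59 of them among the 61. The numbers were not taken to pair the libraries: deviations of same-numbered MEIS1-KO and ctrl-KO libraries correlated at 0.183, 0.144, 0.339, -0.14, 0.0642 and 0.256, against means of -0.0935, -0.0423, -0.0355, 0.00152, -0.0665 and 0.0203 with the other numbers. The same number gave the higher value in 5 of 6, but 2 of the 6 pairs were not above 0.1, and 1 of 6 libraries correlated best with its own number. Under the block 11 YAP and TEAD target genes, 10 actin genes, 7 integrin and ligand genes and 5 AP-1 and immediate early genes were raised. The block changed no direction of a named gene. Of the 61 passing genes that were selected for description besides MEIS1, 44 passed under every setting and none changed sign, and 10 did not pass in the fit of the 12 libraries alone. Depth limits the genes below about 1 CPM, such as HAS2 in MEIS1-KO.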
